A study of Mus musculus with 8 samples.

Results

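A set of 1056 regions in wild-type chromatin carried the repressive mark H3K27me3 together with H3K4me2, without H3K4me3 and without the chromatin regulator ASXL1. They were found in mesenchymal stem and progenitor cells, the adherent stromal cells that give rise to bone, fat and cartilage, grown from mouse bone marrow. The regions were chosen from the wild-type lists of called islands, which are stretches of enriched signal. They are the autosomal H3K27me3 islands narrower than 40000 bp that overlap an H3K4me2 island by 1 bp or more and no H3K4me3 or ASXL1 island. They made up 1056 of 16929 autosomal wild-type H3K27me3 islands under that width, and 6.03% of the 17507 of any width. Chromatin immunoprecipitation sequencing gave 1 library each of H3K27me3, H3K4me2 and H3K4me3 from Asxl1-/- cells, and 1 each of these marks and of ASXL1 from wild-type cells. The labels give C57BL/6 as the strain of every culture and a range of 5 to 10 passages. They do not say how many animals the cultures came from or how the Asxl1 allele was made. No library has a replicate, so no difference between the genotypes was tested, and every share describes these libraries.

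Polycomb repressive complex 2 places H3K27me3 on silent genes, above all on developmental regulators with CpG-rich promoters. H3K4 methylation marks the opposite state: H3K4me3 sits at active or poised promoters, while H3K4me2 covers promoters and also enhancers that lack H3K4me3. H3K27me3 with H3K4me3 is the classical bivalent promoter, held silent but open to activation. H3K27me3 with H3K4me2 alone is known from poised enhancers and from promoters with little H3K4me3. ASXL1 is a cofactor of the BAP1 deubiquitinase and has also been linked to H3K27 and H3K4 methylation. The lists show where islands of 2 marks overlap, but not whether both marks sat on the same nucleosome or in the same cell.

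A promoter is shown from inside such a region for each of the 6 most frequent outcomes in Asxl1-/- cells. Each is taken from the widest region of its outcome among named genes whose start lay under wild-type H3K4me2. Each run is the RefSeq promoter of GRCm38.p6, from 250 bases before to 50 after the start, 5′ to 3′, with CpG dinucleotides in capitals. Foxd3, a forkhead factor of neural crest and pluripotent cells at chr4:99656049-99656348 (+ strand), kept H3K27me3 and H3K4me2. Sncb, which codes for beta-synuclein, at chr13:54766546-54766845 (- strand), had both of these and H3K4me3. Abcc9, the sulfonylurea receptor subunit of a potassium channel, at chr6:142702225-142702524 (- strand), had H3K27me3 alone. Kcnh2, a cardiac potassium channel, at chr5:24329542-24329841 (- strand), had H3K4me2 alone. Notch4, an endothelial Notch receptor, at chr17:34564045-34564344 (+ strand), had H3K4me2 and H3K4me3. Thbs4, a matrix thrombospondin, at chr13:92794769-92795068 (- strand), had none of the 3 marks. They hold 25 CpGs at Foxd3, 15 at Sncb, 16 at Abcc9, 19 at Kcnh2, 5 at Notch4 and 24 at Thbs4, so these 6 alone show no order of CpG count by outcome.
Foxd3: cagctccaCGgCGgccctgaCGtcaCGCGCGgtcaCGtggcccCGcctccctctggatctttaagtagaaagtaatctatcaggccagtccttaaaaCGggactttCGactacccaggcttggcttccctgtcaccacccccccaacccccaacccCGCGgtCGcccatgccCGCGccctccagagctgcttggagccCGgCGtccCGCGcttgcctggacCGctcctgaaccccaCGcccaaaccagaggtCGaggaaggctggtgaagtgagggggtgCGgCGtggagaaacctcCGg
Sncb: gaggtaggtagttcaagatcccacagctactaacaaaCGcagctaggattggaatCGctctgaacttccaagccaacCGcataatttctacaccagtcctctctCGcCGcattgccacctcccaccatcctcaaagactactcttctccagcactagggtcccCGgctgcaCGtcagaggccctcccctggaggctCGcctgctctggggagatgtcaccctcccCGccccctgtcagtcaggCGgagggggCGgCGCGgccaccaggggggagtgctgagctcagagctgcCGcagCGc
Abcc9: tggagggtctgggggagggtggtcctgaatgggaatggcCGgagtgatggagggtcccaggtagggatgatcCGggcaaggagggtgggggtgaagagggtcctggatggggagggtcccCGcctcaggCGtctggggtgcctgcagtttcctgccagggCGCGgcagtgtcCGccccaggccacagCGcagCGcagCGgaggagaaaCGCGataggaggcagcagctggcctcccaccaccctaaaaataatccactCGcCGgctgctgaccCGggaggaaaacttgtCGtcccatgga
Kcnh2: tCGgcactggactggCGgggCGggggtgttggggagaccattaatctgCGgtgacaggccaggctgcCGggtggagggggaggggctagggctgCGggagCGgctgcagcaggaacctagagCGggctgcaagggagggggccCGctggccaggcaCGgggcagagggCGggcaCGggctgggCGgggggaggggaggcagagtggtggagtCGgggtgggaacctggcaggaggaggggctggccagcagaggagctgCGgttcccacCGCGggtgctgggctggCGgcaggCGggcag
Notch4: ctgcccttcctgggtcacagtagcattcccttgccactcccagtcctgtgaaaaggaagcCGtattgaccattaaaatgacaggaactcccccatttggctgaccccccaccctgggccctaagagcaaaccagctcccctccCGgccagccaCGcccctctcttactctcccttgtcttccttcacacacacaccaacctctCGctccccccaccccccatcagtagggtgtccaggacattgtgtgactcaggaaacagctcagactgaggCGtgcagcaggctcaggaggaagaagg
Thbs4: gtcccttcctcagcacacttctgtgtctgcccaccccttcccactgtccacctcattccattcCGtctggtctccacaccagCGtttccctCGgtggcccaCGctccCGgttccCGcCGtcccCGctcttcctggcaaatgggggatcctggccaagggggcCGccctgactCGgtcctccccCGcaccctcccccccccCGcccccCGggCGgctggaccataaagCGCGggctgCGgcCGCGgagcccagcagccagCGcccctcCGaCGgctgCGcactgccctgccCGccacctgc

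In wild type the H3K4me2 part of these regions was small. The regions had a median width of 11400 bp, with quartiles of 6800 and 18400 bp, and together covered 14.5 Mb. H3K4me2 covered a median of 1400 bp of a region, from 200 to 9600 bp, which was 12.2% of its width at the median. A single H3K4me2 island lay over 969 regions, 2 over 84 and 3 over 3. These 1138 H3K4me2 islands had a median width of 1600 bp, against 3000 bp over all autosomal wild-type H3K4me2 islands. The H3K4me2 sites had no fixed place within the H3K27me3 island. In 441 regions (41.8%) the centre of the longest H3K4me2 stretch lay in the outermost 40% of the width, and in 231 (21.9%) in the middle 20%. An H3K4me2 island crossed an edge of the region in 291 cases (27.6%). The nearest wild-type H3K4me3 island was a median of 28200 bp away. It lay within 2000 bp of 78 regions.

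The cells carried H3K4me3 at the markers of their labelled type in both genotypes. Of 8 mesenchymal markers with a listed start, 7 had it in Asxl1-/- and 8 in wild type, where Eng, the TGF-beta co-receptor endoglin, was the 1 more. None of 3 blood cell markers had it in either, and Kdr among 3 endothelial and Epcam among 3 epithelial markers had it in both genotypes. The 3 Asxl1-/- lists hold from 15276 to 33589 islands and the 4 wild-type lists from 17419 to 36048. The lists give no read counts, so the depth is unknown, and an island may be missing from a library because it was shallower. ASXL1 was profiled in wild type only, so these lists do not check the deletion.

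In Asxl1-/- cells most of these regions still had H3K27me3, fewer had H3K4me2, and a minority had H3K4me3. A region is called lost for a mark when no Asxl1-/- island of that mark overlapped it. H3K27me3 was lost at 277 of 1056 regions (26.2%, 95% exact Clopper-Pearson interval 23.6 to 29.0, which covers counting error only). The share was 37.2% over all autosomal wild-type H3K27me3 islands under the width limit. H3K4me2 was lost at 393 regions (37.2%, 34.3 to 40.2), against 14.8% over all such islands that had H3K4me2 and 27.4% over all autosomal H3K4me2 islands. H3K4me3 was present in Asxl1-/- at 171 regions (16.2%, 14.0 to 18.6), against 2.4% of all such islands without wild-type H3K4me3. The 14.8% and 2.4% pools include the 1056 regions. The former also holds islands with H3K4me3, and the latter is mostly the 12942 islands free of H3K4 methylation. The closest class was 166 H3K27me3 islands with H3K4me2 and ASXL1 but no H3K4me3. There H3K4me2 was lost at 76 (45.8%) and H3K4me3 present at 28 (16.9%). Both intervals overlapped those of the 1056 regions, so neither share set them apart from that class. H3K27me3 was lost at 63 of the 166 (interval 30.5 to 45.8%), above the 23.6 to 29.0% of the 1056 regions. These intervals did not meet, so this share did set the regions apart from that class. The comparison was not split by width. The rule had set H3K27me3 and H3K4me2 present and H3K4me3 absent in wild type, so each mark could move in 1 direction only. With the lists of each mark cut to equal length by width, 1397 islands met the rule and 32.9% of them had H3K4me3 in Asxl1-/-. With only the H3K4me3 lists cut, which shortens the wild-type list, it was 30.5% of 1622.

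**Figure D1:**
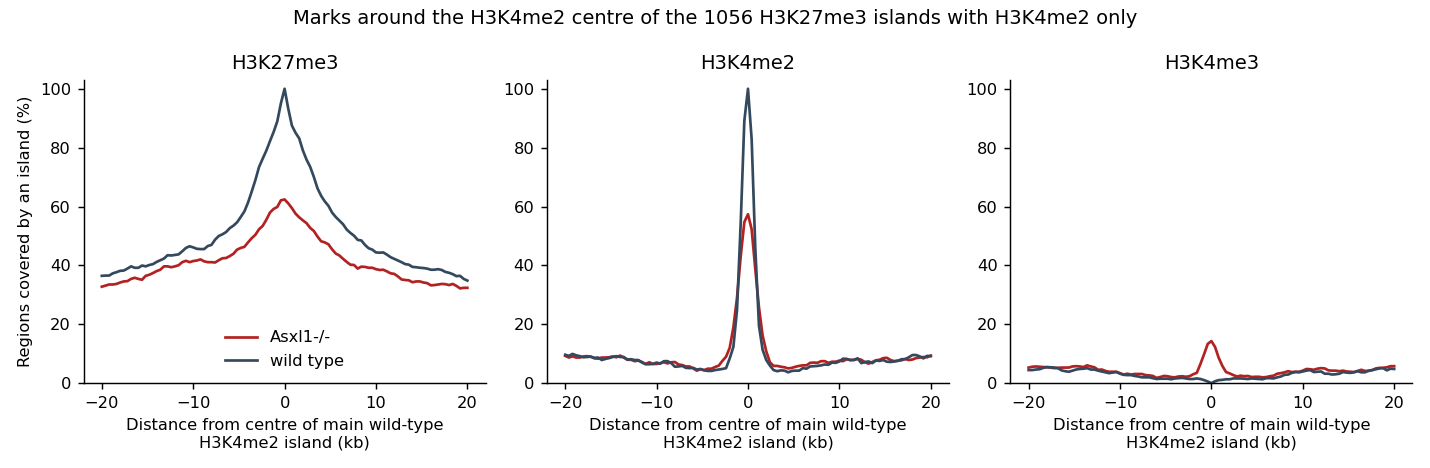
Share of the 1056 regions covered by an island of each mark (y axis, percent) against the distance from the centre of the longest wild-type H3K4me2 stretch in the region (x axis, kb), in Asxl1-/- (red) and wild type (dark). At the centre 62.4% of regions were covered by H3K27me3 in Asxl1-/- against 100% in wild type, 57.4% by H3K4me2 against 100%, and 14.3% by H3K4me3 against 0%. The wild-type values at the centre follow from how the regions were chosen.

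The most frequent outcome was the unchanged combination. H3K27me3 and H3K4me2 without H3K4me3 were present in Asxl1-/- at 396 regions (37.5%, 34.6 to 40.5). The same combination was found at 24.1% (17.8 to 31.3) of the 166 islands with H3K4me2 and ASXL1 but no H3K4me3. That interval lay below the one of the 1056 regions and did not meet it. The combination was found at 5.37% of all 15873 other islands under the width limit, of which 12942 were free of H3K4 methylation. The outcomes that follow were counted in the 1056 regions only. H3K27me3 alone was left at 241 (22.8%), none of the 3 marks at 143 (13.5%) and H3K4me2 alone at 105 (9.94%). All 3 marks, the classical bivalent combination with H3K4me2, were present at 134 (12.7%). H3K4me2 with H3K4me3 and without H3K27me3, as at an active promoter, was present at 28 (2.65%). The other 9 regions had H3K4me3 without H3K4me2, 8 of them with H3K27me3.

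**Figure D2:**
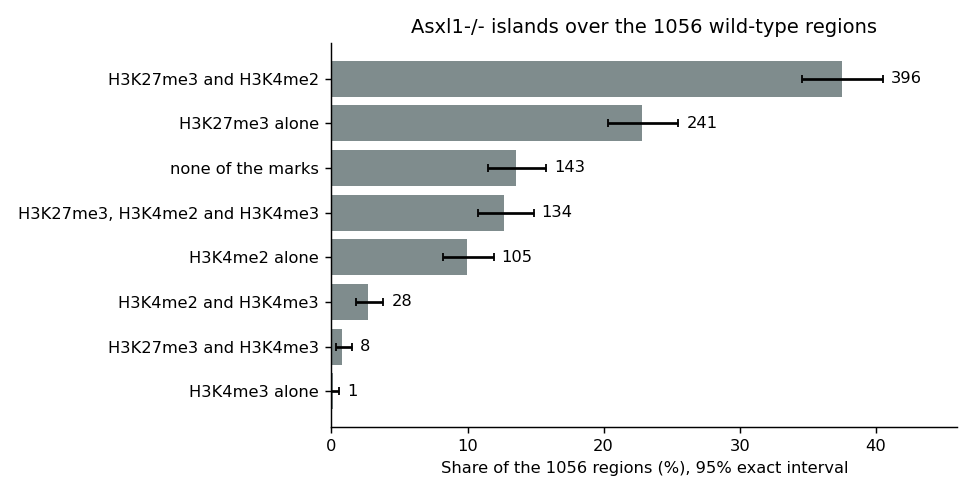
Combinations of Asxl1-/- islands over the 1056 wild-type regions (y axis) as a share of the regions in percent (x axis), with 95% exact intervals as error bars and the number of regions at the end of each bar. The unchanged combination, H3K27me3 and H3K4me2, leads with 396 regions, followed by H3K27me3 alone with 241.

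The same rule turned round, from Asxl1-/- to wild type, also found regions with a mark missing or added in the other genotype. It takes H3K27me3 islands of Asxl1-/- that overlap Asxl1-/- H3K4me2 but no Asxl1-/- H3K4me3 and no wild-type ASXL1. There were 1454 of them, with a median width of 10600 bp. Of these, 256 (17.6%) had no H3K27me3 in wild type, against 36.3% of all autosomal Asxl1-/- islands under the limit. No wild-type H3K4me2 was present at 658 (45.3%), against 20.9% of those with H3K4me2. Wild-type H3K4me3 was present at 297 (20.4%, 18.4 to 22.6), against 3.01% of those without H3K4me3 in Asxl1-/-. H3K4me3 was found in Asxl1-/- alone at 16.2% of regions chosen in wild type, and in wild type alone at 20.4% of regions chosen in Asxl1-/-.

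H3K27me3 was kept more often the wider the island was, and within a width class the intervals of these regions overlapped those of H3K27me3 islands with H3K4me3. Of regions up to 4000 bp wide 34.7% (24.0 to 46.5) kept H3K27me3, of those over 4000 to 8000 bp 58.6% (52.6 to 64.4), of those over 8000 to 16000 bp 76.0% (71.3 to 80.3) and of those over 16000 bp 92.6% (89.3 to 95.2). For islands with H3K4me3 the shares in the same classes were 39.1%, 55.8%, 79.5% and 94.1%, and for islands free of H3K4 methylation 39.8%, 52.0%, 67.8% and 84.9%. The intervals of the H3K4me2-only regions and of the unmethylated islands did not meet in the 2 widest classes. Without regard to width the shares were 73.8% for the H3K4me2-only regions, 72.7% for the 2765 islands with H3K4me3 and 59.8% for the 12942 free of H3K4 methylation, whose median width was 7800 bp.

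**Figure D3:**
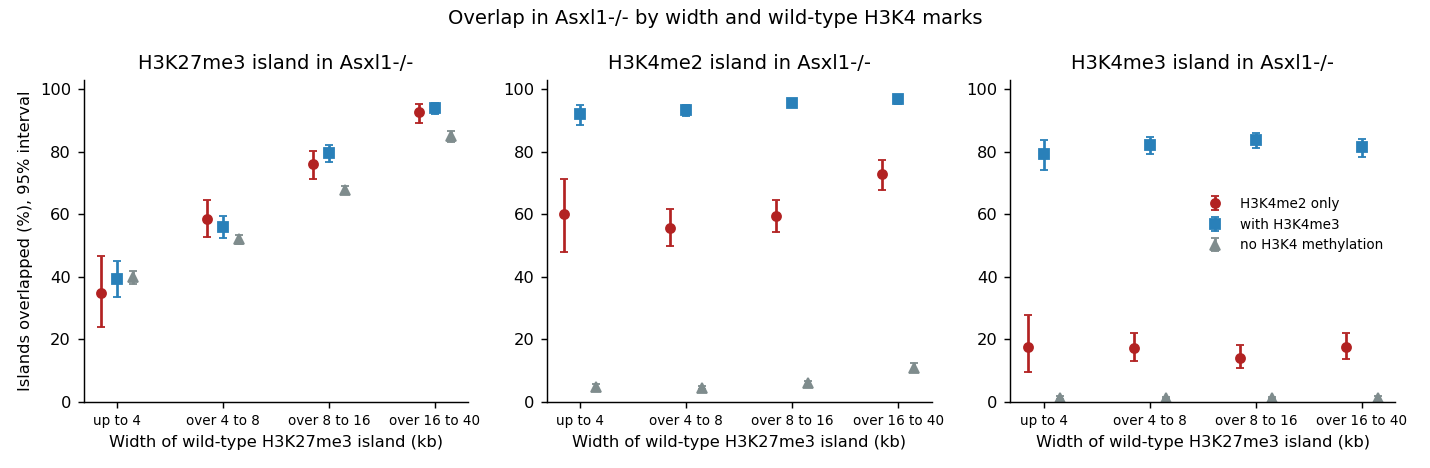
Share of autosomal wild-type H3K27me3 islands overlapped by an Asxl1-/- island of H3K27me3, H3K4me2 or H3K4me3 (y axes, percent, with 95% exact intervals) by width of the wild-type island (x axes, kb). Islands with H3K4me2 only are red, those with H3K4me3 blue and those free of H3K4 methylation grey. For H3K27me3 the 3 classes climb with width, and for the H3K4 marks the H3K4me2-only islands lie between the others in each width class.

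Where H3K27me3 was kept, it was kept over most of the region. Asxl1-/- H3K27me3 covered a median of 90.2% of the width of the 779 regions that had it, all of it in 209 and under 50% in 102. The widest Asxl1-/- island over the region was wider than the region itself in 364 of the 779 (46.7%), and 62 regions lay in an Asxl1-/- island of 40000 bp or more. In 157 the region was covered by 2 or more separate islands. Over all 1056 regions, Asxl1-/- H3K27me3 covered 65.6% of the length under wild-type H3K4me2 and 66.6% of the rest of the width.

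Loss of H3K4me2 went with loss of H3K27me3 and with a short wild-type H3K4me2 stretch. Of the 277 regions without H3K27me3 in Asxl1-/-, 133 kept H3K4me2 (48.0%, 42.0 to 54.1), while 530 of the 779 with H3K27me3 did (68.0%, 64.6 to 71.3). Regions without H3K27me3 were narrower, at a median of 7200 bp against 13600 bp. Within the class over 8000 to 16000 bp the shares were 43.7% (33.1 to 54.7) and 64.5% (58.5 to 70.1). Up to 4000 bp wide they were 59.2% and 61.5%. These shares pool all autosomes, which differ in both marks. On chromosome 3 32.8% of regions kept H3K27me3 and 39.1% kept H3K4me2, and on chromosome 14 96.2% and 76.9%. The part of the chromosomes in the joint loss was not tested. H3K4me2 was kept at 38.3% of regions with up to 600 bp of it in wild type, at 57.0% with over 600 to 1200 bp, at 68.8% with over 1200 to 2400 bp and at 82.7% with more. Over all 1056 regions H3K4me2 covered 1.64 Mb in Asxl1-/- and 1.74 Mb in wild type. Among the 663 regions that kept it, which leaves out every region with none in Asxl1-/-, Asxl1-/- covered more of the region than wild type in 430, less in 173 and the same in 60, with medians of 2000 bp in Asxl1-/- and 1600 bp in wild type.

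H3K4me2 sites inside H3K27me3 had higher shares kept than H3K4me2 sites of the same width outside it in 4 of 4 width classes, with separate intervals in 2. The comparison is between H3K4me2 islands without H3K4me3 or ASXL1. Of islands over 1200 to 2400 bp wide, 64.4% (60.1 to 68.4) of 533 in these regions and 44.1% (42.7 to 45.4) of 5034 outside H3K27me3 had H3K4me2 in Asxl1-/-. Over 2400 bp the shares were 72.5% (65.5 to 78.7) and 64.5% (62.8 to 66.1), over 600 to 1200 bp 52.8% (46.8 to 58.7) and 33.0% (31.0 to 35.0), and up to 600 bp 39.4% (28.0 to 51.7) and 31.2% (27.4 to 35.3). Listed gene starts lay within 1000 bp of 26.5% of the islands in these regions and of 2.06% of those outside. Away from listed gene starts 54.0% (50.5 to 57.6) of islands in these regions and 46.4% (45.4 to 47.3) outside kept H3K4me2, and 9.22% (7.28 to 11.5) and 3.42% (3.08 to 3.79) had H3K4me3 in Asxl1-/-. At gene starts H3K4me3 was present in Asxl1-/- at 27.3% (22.2 to 32.9) of 282 islands in these regions and 16.4% (11.7 to 21.9) of 220 outside.

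H3K4me3 appeared on the H3K4me2 sites. In 165 of the 171 regions (96.5%) it overlapped the wild-type H3K4me2 stretch, and 162 of the 171 also had H3K4me2 in Asxl1-/-. It covered a median of 1600 bp of the region. In 20 regions it came only from islands that reached in from wild-type H3K4me3 outside, and in the other 151 from an island that overlapped no wild-type H3K4me3. Regions with a wild-type H3K4me3 island within 2000 bp had H3K4me3 in Asxl1-/- in 30.8% (20.8 to 42.2) of 78 cases, the others in 147 of 978 (interval 12.8 to 17.4%).

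The outcome differed between chromosomes, as did the length that the marks covered on each. Of the regions on chromosome 3, 21 of 64 (32.8%) kept H3K27me3 and 25 (39.1%) kept H3K4me2, and the length covered on the whole chromosome stood at log2 ratios of Asxl1-/- over wild type of -2.17 and -0.91. On chromosome 14, 25 of 26 (96.2%) kept H3K27me3 and 20 (76.9%) kept H3K4me2, at log2 ratios of 1.03 and 0.31. H3K4me3 was present in Asxl1-/- at 8 of 26 regions (30.8%) on chromosome 14, at 10 of 33 (30.3%) on chromosome 10 and at 1 of 26 (3.85%) on chromosome 16. The part of these chromosome-wide differences in the outcome of a single region was not tested. On the 11 autosomes whose H3K4me3 log2 ratio lay within 0.2 of the autosomal median, 73.9% of 656 regions kept H3K27me3, 59.3% kept H3K4me2 and 13.1% (10.6 to 15.9) had H3K4me3 in Asxl1-/-. With the rule turned round, 22.7% (19.9 to 25.7) of 827 regions there had H3K4me3 in wild type. The 11 autosomes were chosen on H3K4me3 alone, and their H3K27me3 log2 ratios ran from -0.69 on chromosome 4 to 0.98 on chromosome 18.

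**Figure D4:**
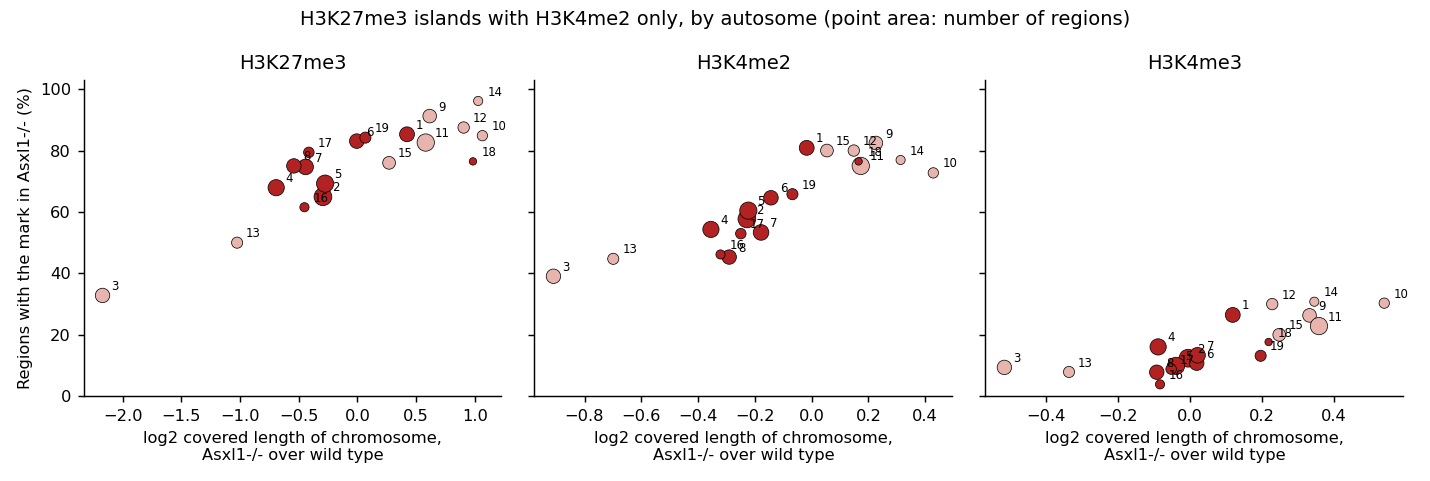
Share of the H3K4me2-only H3K27me3 islands of each autosome that had an Asxl1-/- island of the mark (y axis, percent) against the log2 ratio of the length the mark covered on that chromosome in Asxl1-/- over wild type (x axes). Points are autosomes, labelled by number, with area by number of regions, and dark red points are the 11 autosomes near the median H3K4me3 ratio. Chromosomes 3 and 13 lie lowest for H3K27me3 and H3K4me2, and chromosomes 10, 12 and 14 are the highest for H3K4me3.

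A protein-coding gene start lay inside or within 1000 bp of 341 of the 1039 regions off chromosome 18 (32.8%, 30.0 to 35.8), for which the table of starts gives no entry. The share was 61.4% for H3K27me3 islands with H3K4me3 and 9.03% for those free of H3K4 methylation. In 229 regions the start lay under the H3K4me2 stretch itself. Regions at gene starts more often held on to both marks and more often had H3K4me3: 84.2% (79.8 to 87.9) kept H3K27me3, 78.6% (73.9 to 82.8) kept H3K4me2 and 24.6% (20.2 to 29.6) had H3K4me3 in Asxl1-/-. Of the 698 other regions 68.6% (65.0 to 72.1) kept H3K27me3, 54.7% (51.0 to 58.5) kept H3K4me2 and 84 (9.71 to 14.7%) had H3K4me3 in Asxl1-/-. Median widths were 11800 bp at gene starts and 11000 bp elsewhere, and the median wild-type H3K4me2 stretches were 1600 and 1200 bp. Starts are listed for 16457 of 20665 autosomal protein-coding genes, so a region without a listed start may still hold a gene start. Of the 698 regions without a listed start, 304 (43.6%) overlapped a protein-coding gene. The 6 widest of them include chr2:38679001-38718400 in mm10, which overlaps Nr5a1, the steroidogenic nuclear receptor gene. There Asxl1-/- covered 26400 bp in H3K27me3 and 13200 bp in H3K4me2, against 39400 and 4400 bp in wild type. At chr7:101478601-101517600, over the phosphodiesterase gene Pde2a, Asxl1-/- covered 1800 bp in H3K27me3 and none in H3K4me2, against 39000 and 4000 bp in wild type.

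The starts inside these regions had fewer CpGs than those of bivalent islands and more than those of unmethylated ones. Over the 300 bases of each RefSeq promoter the median was 13 CpGs for 392 starts in these regions, 20 for 2032 starts in H3K27me3 islands with H3K4me3, 5 for 1265 starts in islands free of H3K4 methylation and 14 for all 20085 listed starts. Promoters with a GC content of 50% or more and an observed-to-expected CpG ratio of 0.6 or more made up 36.5%, 62.5%, 12.2% and 46.5% in the same order. Within these regions the share of CpG-rich promoters differed by outcome. It was counted by start, and the starts of 1 gene are not independent. Of 104 starts (87 genes) where Asxl1-/- had H3K4me3, 52.9% were CpG-rich. Of 207 (188 genes) with H3K4me2 and no H3K4me3 35.7% were, and of 81 (75 genes) with neither H3K4 mark 17.3% were. These groups of starts had median CpG counts of 16, 13 and 8. The GC box GGGCGG, read on both strands and itself holding a CpG, was found in 64.4%, 46.4% and 33.3% of them, and in 47.0% of all listed promoters. CCAAT was found in 32.7%, 28.5% and 24.7%, against 38.1% of all, and TATAAA in 7.69%, 10.6% and 7.41%, against 12.7% of all, each on both strands. In the promoters printed above, GGGCGG is found at Abcc9, Thbs4, Sncb and Kcnh2, and CCAAT at Sncb.

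In all, 360 genes had a start at one of these regions, which is 2.19% of the 16457 autosomal protein-coding genes with a listed start. Of 598 genes on 13 lists, of which 1 holds ribosomal and housekeeping genes and the others lineage, neuronal and signalling genes, 56 did (9.36%). None of the 19 ribosomal and housekeeping genes with a listed start did. The rule leaves out islands with H3K4me3, a mark of active promoters, so that absence is no separate result. The lists were chosen with earlier results of these data known, so the 9.36% is no independent count and was not tested against the 2.19%. Asxl1-/- had H3K27me3 over the region at 49 of the 56, H3K4me2 at 50 and H3K4me3 at 20. Over all regions at gene starts the shares were 84.2%, 78.6% and 24.6%, and 48.7% kept the combination. The counts of each list stand beside these shares, and with 14 genes or fewer a list no difference from them is claimed.

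Among transcription factors the regions at 4 forkhead, SOX and T-box genes kept the combination, and those at 4 homeobox genes divided. Over all regions at gene starts 48.7% kept it. Foxd3, Sox14, Sox2 and Tbx4, 4 of 33 genes of their list, had H3K27me3 and H3K4me2 without H3K4me3 in both genotypes. At Sox2, the pluripotency and neural factor, H3K27me3 covered 6800 bp in Asxl1-/- and 8800 bp in wild type, and H3K4me2 2600 bp in Asxl1-/- and 2000 bp in wild type. At Sox14, a neuronal factor, H3K4me2 covered 1600 bp in Asxl1-/- and 4200 bp in wild type. At Foxd3 H3K27me3 covered 15000 bp in Asxl1-/- and 39200 bp in wild type. Of 4 homeobox genes among 71, Irx4, a ventricular factor, and Nkx2-1, the thyroid and lung factor, kept H3K4me2, with 4000 bp in Asxl1-/- and 2200 bp in wild type at Nkx2-1. Lhx8, a forebrain factor, and Pax8, the thyroid and kidney factor, lost it from 2200 and 2600 bp in wild type, and kept H3K27me3 on 9800 bp in Asxl1-/- against 15800 bp in wild type at Lhx8, and on 6000 against 25600 bp at Pax8.

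The helix-loop-helix and zinc finger list and the blood list hold regions that had H3K4me3 in Asxl1-/-. At Ikzf1, the lymphoid zinc finger factor, 1400 bp of H3K4me3 in Asxl1-/- joined H3K27me3 that covered all 4800 bp of the region in both genotypes. At Neurod1, a neuronal and endocrine factor, H3K4me3 covered 1400 bp in Asxl1-/-, and H3K27me3 11200 bp in Asxl1-/- and 12600 bp in wild type. At Kit, the stem cell factor receptor, Asxl1-/- had 4200 bp of H3K4me3, 393000 bp from the nearest wild-type H3K4me3 island. H3K4me2 at Kit covered 4200 bp in Asxl1-/- and 1600 bp in wild type, and H3K27me3 8200 bp in Asxl1-/- and 13800 bp in wild type. Atoh1, a hair cell and cerebellar factor, and Gfi1b, an erythroid factor, kept the wild-type combination. The 2 endothelial genes went apart: at Prox1, the lymphatic regulator, Asxl1-/- had 3400 bp of H3K4me3 and H3K27me3 over all 10400 bp, while Cldn5, a tight junction gene, had none of the 3 marks in Asxl1-/- on a region of 6200 bp.

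Among signalling genes, 2 of 34 Wnt genes (5.88%) and 3 of 53 genes of the BMP, hedgehog, FGF and Notch list (5.66%) had such a region. Dkk1, a secreted Wnt antagonist, and Wnt8b, a forebrain Wnt ligand, kept the combination. H3K4me2 covered 1000 bp in Asxl1-/- and 1600 bp in wild type at Dkk1. The 3 genes of the other list were Bmp8b, Dll3 and Notch4. At Notch4 H3K27me3 was lost from 15000 bp, and Asxl1-/- had 4600 bp of H3K4me2 against 3000 bp in wild type and 3200 bp of H3K4me3. At Dll3, a Notch ligand of the presomitic mesoderm, H3K27me3 stayed on 15400 bp in Asxl1-/- of 19800 bp in wild type, and H3K4me3 covered 1600 bp in Asxl1-/-.

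Neuronal genes made up the largest groups by number, but not by share of their lists. The share was 12.8% on the ion channel and receptor list, which was the longest, and 15.4% on the axon guidance list. It was 21.7% on the epithelial list and 2.19% over all genes with a listed start. Of 109 ion channel and neurotransmitter receptor genes, 14 had such a region, of which Asxl1-/- had H3K27me3 at 12, H3K4me2 at 13 and H3K4me3 at 4. Of 65 axon guidance and neural adhesion genes, 10 had one, with H3K27me3 at 8, H3K4me2 at all 10 and H3K4me3 at 5 in Asxl1-/-. At Scn8a, a neuronal sodium channel, H3K27me3 covered 38600 bp in both genotypes, and Asxl1-/- alone had H3K4me3, on 2200 bp. Kcna6, a voltage-gated potassium channel, had 2800 bp of H3K4me3 in Asxl1-/-, while Gabbr2, a GABA-B receptor subunit, and Chrna3, a nicotinic receptor subunit, had none. At Kcnh2 H3K27me3 was lost from 13200 bp and H3K4me2 covered 9200 bp in Asxl1-/- against 5400 bp in wild type. At Grin3b, a glutamate receptor subunit, H3K27me3 was lost from 6000 bp H3K4me2 covered all 6000 bp in Asxl1-/- against 4200 bp in wild type, and Asxl1-/- had 3400 bp of H3K4me3. Epha10, Robo3 and Sema4f, genes of axon guidance, kept the combination, and Sema4a had H3K4me2 alone. Inside the Sema4a region it covered 800 bp in Asxl1-/- and 1000 bp in wild type. The full width of that H3K4me2 island was 2000 bp in Asxl1-/- and 1000 bp in wild type. The protocadherin gene Pcdh10 had 5800 bp of H3K4me3 in Asxl1-/-, over a region of 7600 bp in wild type.

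Genes of bone, cartilage, fat and stroma belong to the lineages of these cells. Of 36 bone, cartilage and fat genes 3 had such a region (8.33%), and of 70 stromal, contractile and matrix genes 4 had one (5.71%), beside the 2.19% over all genes with a listed start. These lists too were chosen with earlier results of these data known. The fat genes Ucp1, the thermogenic uncoupling protein, and Retn, the hormone resistin, kept H3K27me3 and lost H3K4me2, from 1000 bp at Ucp1 and 4200 bp at Retn in wild type. Col9a2, a cartilage collagen, had 800 bp of H3K4me3 in Asxl1-/-, and H3K27me3 on 3800 bp in Asxl1-/- against 23000 bp in wild type. Lmod1, a smooth muscle leiomodin, had 3400 bp of H3K4me3 in Asxl1-/-, with H3K27me3 on 4600 bp in Asxl1-/- against 28800 bp in wild type. A wild-type H3K4me3 island lay 600 bp from the Lmod1 region. Col15a1 and Col19a1, basement membrane zone collagens, also had H3K4me3 in Asxl1-/-, on 1400 and 1800 bp, and Col4a4 kept the combination. None of the 8 mesenchymal markers had such a region. All 8 had wild-type H3K4me3, and the rule leaves out islands with H3K4me3, so this absence is no separate result.

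Of 23 epithelial genes 5 had such a region (21.7%), and all 5 kept H3K4me2. Krt8 and Krt18, the paired keratins of simple epithelia, lie close together on chromosome 15 in separate regions. At Krt8 H3K27me3 was lost from 8600 bp, and at Krt18 it covered 6200 bp in Asxl1-/- and 6800 bp in wild type. Inside the region H3K4me2 covered 1400 bp in Asxl1-/- and 1800 bp in wild type at Krt8, and 2800 bp in Asxl1-/- and 1400 bp in wild type at Krt18. The H3K4me2 island at Krt8 reached beyond the region, with a full width of 10400 bp in Asxl1-/- and 6200 bp in wild type. The claudin genes Cldn3 and Cldn7 kept the combination, and Grhl3, a regulator of the epidermal barrier, had 1200 bp of H3K4me3 in Asxl1-/-.

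**Figure D5:**
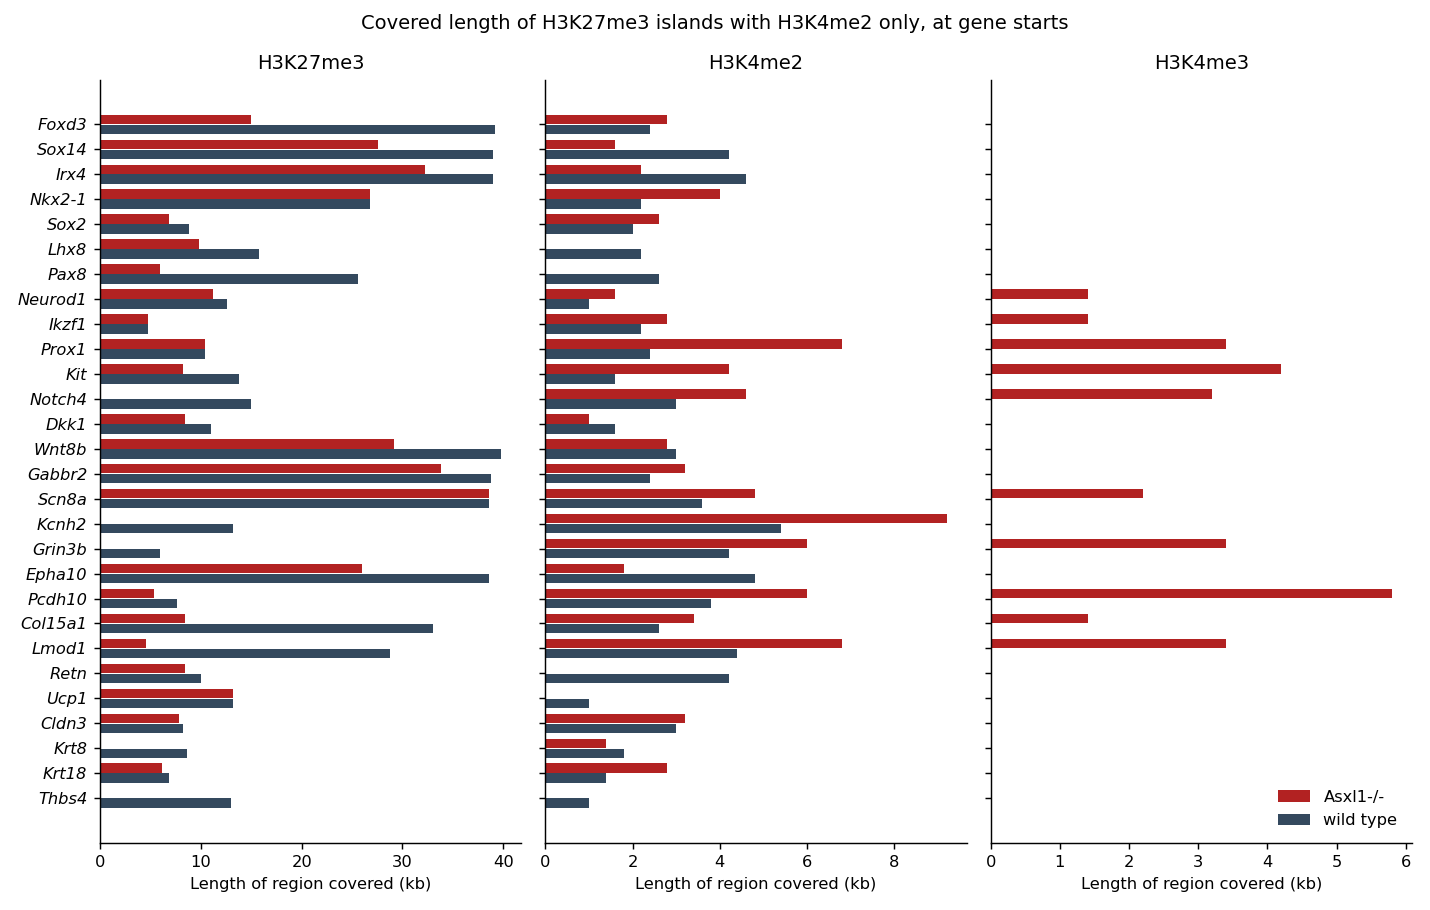
Length of the region covered by H3K27me3, H3K4me2 and H3K4me3 (x axes, kb) at H3K4me2-only H3K27me3 islands with a gene start (y axis), in Asxl1-/- (red) and wild type (dark). Wild-type H3K4me3 is 0 and wild-type H3K27me3 is the width of the region, because the rule sets both. H3K4me3 in Asxl1-/- reaches 5.8 kb at Pcdh10 and 4.2 kb at Kit, and Thbs4 has no bar in Asxl1-/-.

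Beyond the lists, further genes were taken from the widest regions of each outcome, so their mixture of outcomes follows from the choice. Sncb and Gprin1 share the widest, of 39800 bp on chromosome 13, where Asxl1-/- had 2800 bp of H3K4me3 and 38200 bp of H3K27me3. Cxcl14, a chemokine, had 2400 bp of H3K4me3 in Asxl1-/- and H3K27me3 on 36000 bp in Asxl1-/- against 36800 bp in wild type. Th, the tyrosine hydroxylase of dopamine synthesis, lost 800 bp of H3K4me2 and kept H3K27me3 on 25600 bp in Asxl1-/- against 28000 bp in wild type. Nr1h3, a liver X receptor, lost H3K27me3 from 10200 bp and had 2200 bp of H3K4me3 in Asxl1-/-. A wild-type H3K4me3 island lay 1400 bp from the Nr1h3 region. Thbs4 lost all marks from a region of 13000 bp, as did Plaat1, a phospholipase and acyltransferase gene, from 11400 bp. Of the genes named here, Sox2, Lhx8, Sema4a and Pcdh10 lie on chromosome 3, and Foxd3, Gabbr2, Epha10, Col15a1, Grhl3, Col9a2 and Bmp8b on chromosome 4. Irx4, Sncb, Gprin1, Cxcl14 and Thbs4 lie on chromosome 13. The length covered by H3K27me3 on these 3 chromosomes stood at log2 ratios of Asxl1-/- over wild type of -2.17, -0.69 and -1.03. Named genes also lie on chromosomes with the opposite sign: Sox14, Chrna3 and Robo3 on chromosome 9, Grin3b on chromosome 10, Ikzf1, Tbx4 and Cldn7 on chromosome 11 and Nkx2-1 on chromosome 12. The H3K27me3 log2 ratios there were 0.62, 1.06, 0.58 and 0.90, and those of H3K4me3 0.33, 0.54, 0.36 and 0.23, in the order of the chromosomes. The part of these differences in the values of single genes was not tested.

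MicroRNA genes were found in 13 regions, with 14 hairpins. In Asxl1-/- 8 of the hairpins lay in regions with the wild-type combination, 4 in regions with none of the marks, 1 in a region with H3K27me3 alone and 1, Mir9-3, in a region with H3K4me3. The regions of Mir9-3, Mir338 and Mir135a-1 were picked out after their values were seen, because each belongs to a microRNA known from neurons or glia. The region of Mir9-3 had 1400 bp of H3K4me3 and 30800 bp of H3K27me3 in Asxl1-/-, against none and 32400 bp in wild type. That of Mir338 had 5000 bp of H3K4me2 in Asxl1-/- and 1000 bp in wild type, and that of Mir135a-1 had 1400 bp in Asxl1-/- and 1600 bp in wild type, both with no H3K4me3. The RefSeq mature sequences, 5′ to 3′ with the seed (bases 2 to 8) in capitals, hold 3 different seeds: miR-9-5p from Mir9-3, miR-338-3p from Mir338 and miR-135a-5p from Mir135a-1.
miR-9-5p: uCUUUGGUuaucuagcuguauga
miR-338-3p: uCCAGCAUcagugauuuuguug
miR-135a-5p: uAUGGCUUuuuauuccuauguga

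Among the 5 islands nearest the width limit on each side H3K27me3 was kept, and the H3K4 marks were found more often inside it. Of the 5 widest regions, of 39200 to 39800 bp, all 5 kept H3K27me3 and H3K4me2 and 2 had H3K4me3 in Asxl1-/-. Of the 5 islands just beyond it, of 40000 to 41200 bp, that met the other conditions, all 5 kept H3K27me3, 3 kept H3K4me2 and none had H3K4me3. In all, 96 islands at or over the limit met the other conditions. With these added, 64.6% of 1152 kept H3K4me2 and 16.5% had H3K4me3 in Asxl1-/-, against 62.8% and 16.2% without them. The 5 just beyond the limit therefore do not stand for the 96.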

How the data were processed

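The authors deposited 1 list of called islands per library, for 7 of the 8 samples. The input has no list and was not analysed here. The submitters' processing notes name BWA, SICER 1.1 and the mm10 build. Window, gap, control and significance settings are not stated in any source used. The deposited lists hold positions on a 200 bp grid, with no count, score or p-value, so a weak island and a missing one cannot be ranked.

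Overlap meant 1 bp or more, computed with pandas 2.3.3, numpy 2.4.6 and, for exact intervals, scipy 1.17.1 under Python 3.11.15. Counts equalled those of bedtools 2.31.1. Positions are 1-based, and GRCm38.p6 has the coordinates of mm10. Gene starts come from RefSeq promoters, listed for 16457 of 20665 autosomal protein-coding genes. Planted losses were read back on simulated lists. The members and gene lists were chosen with earlier results of these data known. Named genes are, per outcome, the 6 in the widest regions, the 8 with the widest Asxl1-/- H3K4me3 island, and up to 4 per gene list (all where 5 or fewer). Clone and predicted names were passed over, and the text uses a selection of those genes. Log2 ratios compare covered length per chromosome. With 1 library per group no test was made.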

Additional observations from a re-analysis of the deposited data

How the results depend on the processing

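No paired analysis was possible because each target and genotype has 1 library. The main shares were 73.8% with H3K27me3 kept, 62.8% with H3K4me2 kept, 16.2% with H3K4me3 and 37.5% with the combination kept. An alternative moved a share when it left the 95% interval of the main one. With islands under 20000 bp, 68.3% kept H3K27me3 and 33.2% the combination. In the wider 50% of every list the 4 shares were 71.0%, 72.5%, 20.0% and 42.7%. With lists of a mark cut to equal length, H3K4me2 was kept at 75.4%, H3K4me3 present at 32.9% and the combination kept at 33.2%. Cut for 1 mark at a time, also chosen after seeing the data, the H3K27me3 lists gave 70.2% with H3K27me3 kept and the H3K4me2 lists 66.2% with H3K4me2 kept. The H3K4me3 lists gave 72.2% with H3K4me2 kept, 30.5% with H3K4me3 and 34.1% with the combination kept. On the 11 autosomes near the median, H3K4me2 was kept at 59.3% and H3K4me3 present at 13.1%. Where all H3K4me2 islands lay wholly inside the region, a choice made after seeing the data, 77.8% kept H3K27me3 and 66.4% H3K4me2. All 4 shares stayed inside their intervals when an overlap of 600 bp was required of Asxl1-/- islands or of wild-type H3K4me2, when wild-type H3K4me3 and ASXL1 were also kept 2000 bp away, and with ASXL1 ignored, no width limit or the X chromosome added. The share of regions at a gene start, 32.8%, was 39.5% with a window of 5000 bp, 42.4% with all annotated genes and, added after seeing the data, 45.5% with either end of every protein-coding gene. Beyond the cuts of single marks, the cause of these moves was not tested. Depth is unknown.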

Other observations

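On the X chromosome, left out of the set above, the rule found few regions in wild type and more in Asxl1-/-. Turned round, it found 81 regions among 1778 Asxl1-/- H3K27me3 islands under 40000 bp on the X chromosome, of which 35 had H3K27me3, 38 had H3K4me2 and 12 had H3K4me3 in wild type. In wild type it found 18 regions among 205 such islands, of which 17 had H3K27me3, 16 had H3K4me2 and 3 had H3K4me3 in Asxl1-/-. The whole chromosome stood at a log2 ratio of covered H3K27me3 length, Asxl1-/- over wild type, of 3.54.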
